A study of Mus musculus with 6 samples.

Results

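The genes described here are 10 genes of the ATF4 stress response and of serine and one-carbon metabolism in mouse osteoclast precursors: Atf4, Ddit3, Asns, Trib3, Chac1, Sesn2, Psat1, Phgdh, Shmt2 and Mthfd2. They were chosen by name with earlier results of these data known, so their counts beside the shares of all genes are a description and not independent support. Each matched 1 row of the 24940 genes in the deposited table, so all 10 were found. All 10 also passed the filter on low values that left 11595 genes for the tests.

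ATF4 is a transcription factor whose protein is made from its mRNA when the initiation factor eIF2α is phosphorylated by kinases that sense amino acid shortage, unfolded protein in the endoplasmic reticulum (ER), heme shortage or double-stranded RNA. This is called the integrated stress response, and because ATF4 is largely controlled at translation, the level of Atf4 mRNA is not a measure of ATF4 protein. Its targets supply amino acids and the carbon units that serine donates to folate. They also include the feedback regulator Trib3 and Chac1, an enzyme that degrades glutathione. Osteoclasts are large multinucleated cells that arise from macrophage precursors and secrete acid and proteases, and RANKL is the cytokine that drives that change.

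Total RNA came from bone marrow-derived macrophage cells, grown from C57BL/6 mice aged 6 to 8 weeks according to the sample labels, while the methods of the study name ICR mice. Marrow cells were held in M-CSF at 5 ng/mL overnight and then expanded in M-CSF at 30 ng/mL for 3 days. The groups were M-CSF alone at 30 ng/mL (-R), M-CSF with RANKL at 100 ng/mL (+R), and the same with LE at 10 μg/mL (R+LE), each for 3 days, and LE is a methanol extract of the leaves of Abeliophyllum distichum. Each group had 2 libraries, all 3 groups received M-CSF, and there was no group with LE but without RANKL, so any action of LE without RANKL cannot be told apart from its action with it. Nothing in the labels says that the 2 libraries of a group came from separate cultures, so the p-values measure the spread between libraries, which may be technical.

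Levels are in RPKM, the reads on a gene divided by its transcript length in kilobases and by the mapped reads of the library in units of 1000000, as the authors deposited them. The values fell on whole-read steps, which gave a depth of 29390222 to 34846370 mapped reads per library, and the 10 genes held between 25 reads (Chac1) and 3857 reads (Shmt2) in a library. The 5 macrophage markers (Csf1r, Cd68, Adgre1, Itgam and Tyrobp) were detected in every library and summed to 1854 and 1947 RPKM in -R, 1435 and 1241 RPKM in +R and 1339 and 1076 RPKM in R+LE. With RANKL, Csf1r, Cd68 and Adgre1 fell (log2 fold changes -0.72, -0.79 and -0.85, adjusted p = 0.0031, 0.00262 and 0.000859 in limma). Itgam, higher in both +R libraries than in -R, and Tyrobp did not pass (0.34 and -0.12, adjusted p = 0.0847 and 0.624 in limma). With LE 0 of the 5 passed in limma, 1 had an unadjusted p below 0.05 in each direction and 1 passed higher with voom. The 5 osteoclast markers (Acp5, Ctsk, Mmp9, Dcstamp and Oscar) summed to 40.0 and 41.1 RPKM in -R, 1897 and 1674 RPKM in +R and 331.5 and 292.1 RPKM in R+LE. The markers of B and T cells, red cells and endothelium summed to at most 0.782, 0.124 and 1.08 RPKM in any library. Among markers of other cells, Cd3e, Hba-a1 and Hba-a2 had no read, whereas Col1a1 and Col1a2 were present, the 4 stromal markers summing to 14.8 and 12.85 RPKM in -R, 8.97 and 12.95 RPKM in +R and 6.86 and 7.83 RPKM in R+LE. The neutrophil markers, almost all S100a8, summed to 10.9 and 10.7 RPKM in -R, 0.66 and 0.816 RPKM in +R and 2.53 and 0.509 RPKM in R+LE, and the megakaryocyte markers, almost all Pf4, to 119.4 and 123.4, 6.00 and 8.71, and 18.3 and 12.7 in that order. The part that the macrophage and osteoclast makeup or these other cells had in the results below was not tested, and in bulk RNA fewer cells of a type and less RNA per cell cannot be told apart. The ribosomal Rn45s entry took 4.97% to 6.83% of the reads on genes in -R, 10.9% to 11.1% in +R and 11.2% to 13.5% in R+LE.

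**Figure D1:**
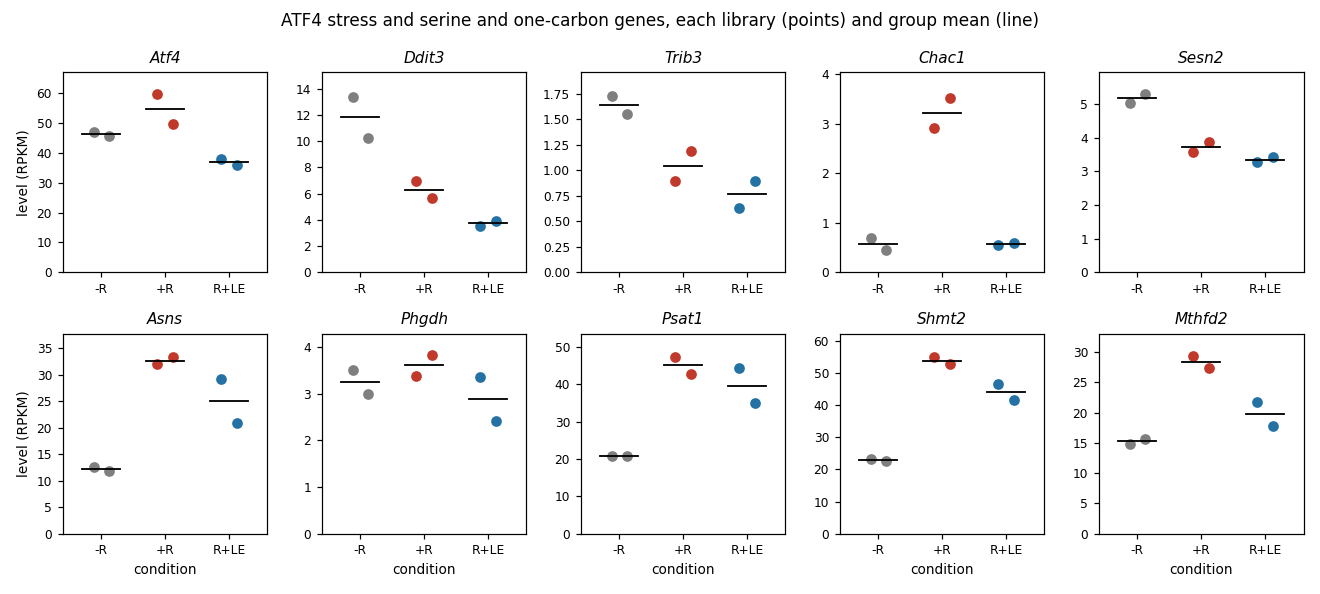
Level in RPKM (vertical axis, from 0) of the 10 genes in the 3 conditions (horizontal axis), with a point for each library and a line at the mean of 2 libraries. Chac1 was at 2.91 and 3.52 RPKM in +R and at or below 0.696 RPKM in the other 4 libraries, while Asns, Psat1 and Shmt2 stayed above both -R libraries in R+LE and Ddit3 was lower in each successive condition from left to right.

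The first comparison asks how RANKL alone altered these genes. The asparagine enzyme Asns, the serine enzyme Psat1 and the mitochondrial one-carbon enzymes Shmt2 and Mthfd2 rose, as did the glutathione-degrading enzyme Chac1, while the stress regulators Ddit3 and Sesn2 fell. A gene passed the test at an adjusted p below 0.05 (limma on log2(RPKM + 0.5), Benjamini-Hochberg over 11595 genes), and it was called when it also changed by at least 2-fold. Of the 10 genes, 5 rose (Asns, Chac1, Psat1, Shmt2 and Mthfd2), against 23.9% of all genes tested, 2 fell (Ddit3 and Sesn2), against 21.5% of all, and 3 did not pass (Atf4, Trib3 and Phgdh). Those called higher were Asns, Chac1, Psat1 and Shmt2, which is 4 of 10 against 6.58% of all genes. None was called lower, a count of 0 in limma and also with voom on recovered reads, against 8.92% of all genes, and 3 had an unadjusted p below 0.05 in that direction. In 6 of the 10 the lower +R library was above the higher -R library, against 40.3% of all genes, and in 3 both +R libraries were the lower, against 35% of all genes. The median log2 fold change was 0.55 over the 10 genes and 0.05 over all genes tested.

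The second comparison asks what LE did in the presence of RANKL. Chac1 fell to levels that overlapped those of -R, Atf4, Ddit3 and Mthfd2 fell by less than 2-fold, and the synthesis enzymes Asns, Psat1 and Shmt2 did not pass the test. In all, 4 of the 10 genes passed, all lower in R+LE than in +R, against 6.86% of all genes tested, and only Chac1 was called lower, against 1.78% of all genes. The number that rose was 0 in limma, by unadjusted p below 0.05 and with voom, against 5.19% of all genes that rose and 1.46% that were called higher. The log2 fold change was below 0 for all 10 genes, with a median of -0.34 against -0.05 for all genes tested, and it stayed below 0 for all 10 under each of the 17 alternative settings. In 8 of the 10 genes both R+LE libraries lay below both +R libraries, against 29.5% of all genes, and the other two, Trib3 and Psat1, overlapped. In 0 of the 10 were both R+LE libraries the higher, against 19.5% of all genes. Without +R replicate 1, only 1 gene (Chac1) passed, and without -R replicate 1 or -R replicate 2, which enter through the shared spread, 2 passed. The +R libraries enter the RANKL comparison and the LE comparison alike, so their values act on both, with opposite sign.

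The third comparison sets R+LE against -R, that is, RANKL and LE together against neither. Asns, Psat1 and Shmt2 were higher in R+LE, which is 3 of 10 against 15.3% of all genes tested. Ddit3, Trib3 and Sesn2 were lower, again 3 of 10 against 19% of all genes. Atf4, Chac1, Phgdh and Mthfd2 did not pass. Only Ddit3 was called lower, against 6.36% of all genes. The number called higher was 0 in limma, against 3.92% of all genes, with 4 at an unadjusted p below 0.05 and 1 called by voom, and Asns, with a log2 fold change of 0.99, lay just short of 2-fold. In 4 of the 10 genes the lower R+LE library was above the higher -R library, against 31.2% of all genes, and in 4 both R+LE libraries were the lower, against 34.3% of all genes. The median log2 fold change was -0.08 over the 10 genes and -0.01 over all genes tested.

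**Figure D2:**
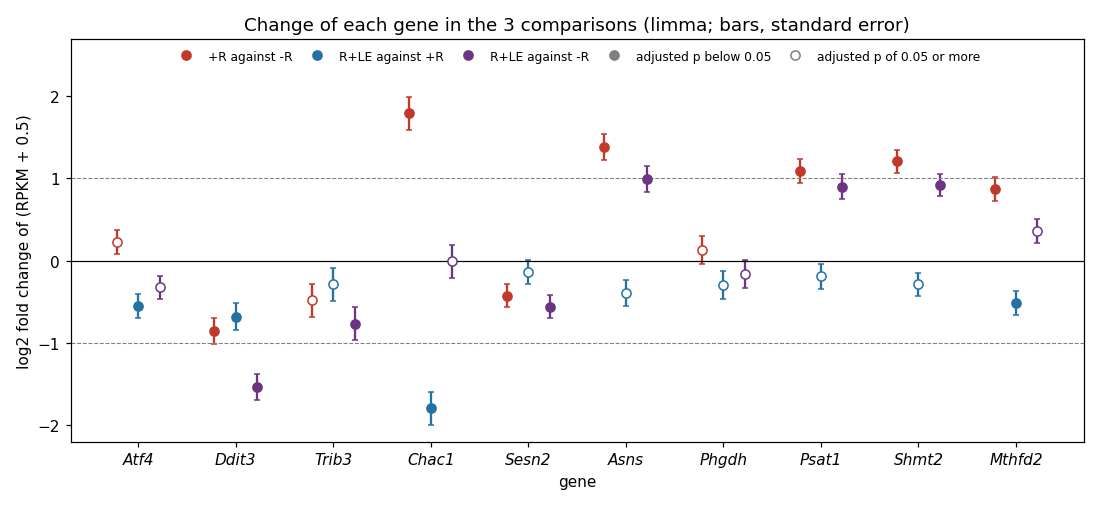
Log2 fold change of (RPKM + 0.5) from limma (vertical axis) for each of the 10 genes (horizontal axis) in the 3 comparisons, with bars for the standard error, filled points for an adjusted p below 0.05 and dashed lines at a 2-fold change. The red and blue points of Chac1 are near mirror images at 1.79 and -1.80, while Asns, Psat1, Shmt2 and Mthfd2 have red points from 0.87 to 1.38 and blue points from -0.52 to -0.19.

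Atf4, the transcription factor at the head of the response, lies on chromosome 15 of mm10 from 80255184 to 80257545. It was 47.0 and 45.6 RPKM in -R, 59.7 and 49.5 RPKM in +R, and 37.8 and 35.9 RPKM in R+LE. No groups overlapped, and both R+LE libraries were the lowest of the 6, but the +R libraries differed from each other by more than the -R and +R groups did at their nearest points. The log2 fold change with RANKL was 0.23 (limma, standard error (SE) 0.15, adjusted p = 0.214, 95% interval from -0.08 to 0.54). With LE it was -0.56 (limma, SE 0.15, adjusted p = 0.0201). That fall did not pass without +R replicate 1, where it was -0.42 (adjusted p = 0.287 in limma), or without -R replicate 1 or 2 (adjusted p = 0.0631 and 0.0636 in limma). It also did not pass without the filter (adjusted p = 0.0709 in limma) or with only the compared groups in the fit (adjusted p = 0.063). With RANKL, Atf4 passed under quantile normalization (0.28 on the log2 scale, limma adjusted p = 0.03), and between R+LE and -R it passed with voom (-0.32, adjusted p = 0.0361), where the value as reported was -0.33 (adjusted p = 0.0987).

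Ddit3 encodes CHOP, a transcription factor induced by ATF4 that is associated with cell death under prolonged ER stress, and it lies on chromosome 10 from 127290793 to 127296288. It was 13.4 and 10.2 RPKM in -R, 6.93 and 5.65 RPKM in +R, and 3.56 and 3.89 RPKM in R+LE. The 3 groups were fully apart and Ddit3 was the only one of the 10 genes that passed the test in all 3 comparisons with the same sign. Its log2 change was -0.85 for RANKL (limma, SE 0.16, adjusted p = 0.000449), -0.68 for LE (adjusted p = 0.0103) and -1.53 between R+LE and -R (adjusted p = 2.46e-06). The fall with LE did not pass without +R replicate 1 (log2 fold change -0.54, adjusted p = 0.0808 in limma), without the filter (adjusted p = 0.12) or with voom on recovered reads (adjusted p = 0.0712). Ddit3 shares 68 bp of exon with Mars on the opposite strand, and the counting ignored strand, so those reads were not separated.

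Trib3, a pseudokinase that dampens ATF4 and CHOP activity, lies on chromosome 2 from 152337425 to 152344060. Its levels were low, at 1.73 and 1.56 RPKM in -R, 0.892 and 1.19 RPKM in +R, and 0.635 and 0.899 RPKM in R+LE. Both -R libraries were the highest and the +R and R+LE libraries overlapped. On the log2 scale the difference was -0.48 for RANKL (limma, SE 0.20, adjusted p = 0.0656), -0.29 for LE (adjusted p = 0.463), and -0.77 between R+LE and -R (adjusted p = 0.0085). The last of these did not pass without -R replicate 1 (adjusted p = 0.0814 in limma) or without R+LE replicate 1 (adjusted p = 0.0615). The difference for RANKL passed without a variance trend, with only the compared groups in the fit and with voom (adjusted p = 0.0331, 0.0477 and 0.0444 in limma).

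Sesn2, a leucine-binding protein that restrains the growth kinase complex mTORC1, lies on chromosome 4 from 132492807 to 132510456. It was 5.02 and 5.30 RPKM in -R, 3.57 and 3.87 RPKM in +R, and 3.26 and 3.43 RPKM in R+LE. The groups did not overlap, but +R and R+LE were close. The Sesn2 log2 fold change was -0.42 for RANKL (limma, SE 0.14, adjusted p = 0.0246), -0.13 for LE (adjusted p = 0.665, 95% interval from -0.44 to 0.17) and -0.56 between R+LE and -R (adjusted p = 0.00695). The fall with RANKL did not pass when any of the 4 -R and +R libraries was left out (adjusted p from 0.0628 to 0.16 in limma) or without the filter (adjusted p = 0.0543), and the difference between R+LE and -R did not pass without -R replicate 2 (adjusted p = 0.0532).

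Chac1, which degrades the antioxidant glutathione and is a target of ATF4 and CHOP, lies on chromosome 2 from 119351242 to 119354327. It was 0.696 and 0.458 RPKM in -R, 2.91 and 3.52 RPKM in +R, and 0.546 and 0.588 RPKM in R+LE. In reads, that was 32 and 25, 140 and 169, and 27 and 28. Both +R libraries stood apart from the other 4, and the -R and R+LE libraries overlapped. The mean RPKM was 5.57-fold higher in +R than in -R and 5.67-fold higher in +R than in R+LE. The log2 fold change on the log2(RPKM + 0.5) scale, which understates changes of genes at such low levels, was 1.79 with RANKL (limma, SE 0.20, adjusted p = 3.1e-06) and -1.80 for LE (SE 0.20, adjusted p = 2.4e-05). Between R+LE and -R it was -0.005 (adjusted p = 0.989 in limma, 95% interval from -0.43 to 0.42), and the sign of this last value changed with the setting. With a pseudocount of 0.1 the changes were 2.31 with RANKL and -2.31 with LE, and with voom on recovered reads they were 2.45 and -2.42.

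ATF4 binds DNA together with C/EBP factors at a composite element whose core was searched here as TGATGNAA on either strand, in the 250 bases before the start site of each gene (RefSeq, GRCm38.p6, the assembly also called mm10). Of the 10 genes, all of which had a window, 2 held a match, Chac1 and Asns, against 3.45% of all 32851 windows. The stricter core TGATGCAA, which is one form of TGATGNAA, was held by 1 of the 10 (Chac1) and by 0.791% of all windows, and the ER stress element, CCAAT and CCACG with 9 bases between them on either strand, by 0 of the 10 and by 0.113% of all windows. The stretches around both matches are shown, and whether a match goes with the change of a gene with RANKL was not tested. Capitals mark the match, and in Chac1 it is on the reverse strand, where the core reads TTGCATCA.
Chac1: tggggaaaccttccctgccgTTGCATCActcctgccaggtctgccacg
Asns: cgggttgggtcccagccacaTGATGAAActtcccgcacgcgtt
The Chac1 stretch is chr2:119351029-119351076 on the plus strand, with the match starting 193 bases before the start site, and the Asns stretch is chr6:7693210-7693252 on the minus strand, with the match starting 23 bases before it. A match is a description of letters and not a measured binding site, and no match in Atf4, Ddit3, Trib3, Sesn2, Psat1, Phgdh, Shmt2 or Mthfd2 says only that these letters are not in that window. The last bases of the Trib3 window, unlike those of the other genes, were found in no annotated transcript of the gene, so its window is less certain.

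Asns encodes asparagine synthetase, which makes asparagine from aspartate and glutamine, and lies on chromosome 6 from 7675171 to 7693182. It was 12.6 and 11.8 RPKM in -R, 32.0 and 33.2 RPKM in +R, and 29.2 and 21.0 RPKM in R+LE. The R+LE libraries lay between those of -R and +R and were far apart from each other. The Asns log2 fold change was 1.38 for RANKL (limma, SE 0.16, adjusted p = 4.27e-06), -0.39 for LE (adjusted p = 0.143) and 0.99 between R+LE and -R (adjusted p = 0.000177). The change with LE rested on which R+LE library was used, since it was -0.63 and passed (adjusted p = 0.00995 in limma) without R+LE replicate 1 and was -0.16 without R+LE replicate 2.

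Serine is made from a glycolytic intermediate by PHGDH, PSAT1 and PSPH in that order. Phgdh, the entry enzyme, lies on chromosome 3 from 98313171 to 98339969 and was 3.50 and 3.00 RPKM in -R, 3.39 and 3.82 RPKM in +R, and 3.36 and 2.41 RPKM in R+LE. It passed the test in none of the 3 comparisons, as reported or under the 17 alternatives, with adjusted p-values of 0.556, 0.345 and 0.505 in limma as reported and 95% intervals from -0.23 to 0.50 for RANKL and from -0.66 to 0.07 for LE. Its transcript shares stretches of 118 to 1608 bp, at 95.1% to 98.7% identity, with 11 other annotated genes or pseudogenes, so reads could have been split between copies and its level is uncertain, whereas the other 9 genes had no such copy at 95% identity over 100 bp.

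Psat1, the next enzyme, lies on chromosome 19 from 15905123 to 15925059. It was 20.9 and 20.8 RPKM in -R, 47.3 and 42.7 RPKM in +R, and 44.3 and 34.98 RPKM in R+LE. The -R libraries were below the other 4, and the +R and R+LE libraries overlapped. The log2 fold change of Psat1 was 1.09 for RANKL (limma, SE 0.15, adjusted p = 2.61e-05), -0.19 for LE (adjusted p = 0.523, 95% interval from -0.51 to 0.13) and 0.90 between R+LE and -R (adjusted p = 0.000245). In the same cells, therefore, the second enzyme of serine synthesis rose by 2.16-fold in mean RPKM while the first, with the uncertainty just given, did not pass the test.

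Shmt2 passes a carbon unit from serine to folate in mitochondria and lies on chromosome 10 from 127517123 to 127522444. It was 23.3 and 22.8 RPKM in -R, 55.1 and 52.8 RPKM in +R, and 46.5 and 41.8 RPKM in R+LE. The 3 groups did not overlap, with R+LE nearer to +R than to -R. On the log2 scale Shmt2 differed by 1.21 for RANKL (limma, SE 0.14, adjusted p = 3.94e-06), -0.29 for LE (adjusted p = 0.227) and 0.92 between R+LE and -R (adjusted p = 9.45e-05). Shmt2 shares 32 bp of exon with Ndufa4l2 on the opposite strand.

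Mthfd2, the mitochondrial enzyme that handles the folate-bound carbon next, lies on chromosome 6 from 83305704 to 83317604. It was 14.8 and 15.7 RPKM in -R, 29.3 and 27.4 RPKM in +R, and 21.8 and 17.8 RPKM in R+LE. The groups did not overlap, and R+LE lay between the others and nearer to -R. The log2 fold change of Mthfd2 was 0.87 for RANKL (limma, SE 0.14, adjusted p = 0.000143), -0.52 for LE (SE 0.14, adjusted p = 0.0284) and 0.36 between R+LE and -R (adjusted p = 0.066). The fall with LE did not pass under 8 of the 17 alternatives, among them leaving out -R replicate 1 or 2, +R replicate 1 or 2, or R+LE replicate 2, with adjusted p up to 0.176 in limma. The others were no filter, no variance trend and only the compared groups in the fit (adjusted p = 0.0963, 0.052 and 0.0723 in limma). The difference between R+LE and -R passed under 6 of the 17 (adjusted p from 0.0061 to 0.0444 in limma).

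By level per length, Atf4 was the highest of the 10 genes in -R at 46.3 ± 1.02 RPKM (SD, n = 2) and Chac1 the lowest at 0.577 ± 0.168 RPKM (SD, n = 2). In -R the order from the top was Atf4, Shmt2, Psat1, Mthfd2, Asns, Ddit3, Sesn2, Phgdh, Trib3 and Chac1, and of neighbours in that order the libraries of Asns and Ddit3 overlapped. In +R, Atf4 at 54.6 ± 7.22 and Shmt2 at 53.9 ± 1.61 RPKM overlapped at the top, and Sesn2, Phgdh and Chac1 followed each other with overlapping neighbours. In R+LE, Shmt2, Psat1 and Atf4 led with 44.1 ± 3.32, 39.6 ± 6.58 and 36.9 ± 1.31 RPKM (SD, n = 2 each), and the libraries of neighbours among these 3 overlapped. Chac1 moved from the lowest place in -R to above Trib3 in +R and back to the lowest in R+LE.

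Other genes of the pathway were taken from 6 lists of 75 genes in all, of which 66 passed the filter and were tested. These lists, too, were chosen with earlier results of these data known. With RANKL, 33 of the 66 rose and 7 fell, against 23.9% and 21.5% of all genes tested, and the median log2 fold change was 0.44. With LE, 2 rose and 6 fell, against 5.19% and 6.86% of all genes, with a median of -0.19. Between R+LE and -R, 21 were higher and 10 lower, against 15.3% and 19% of all genes, with a median of 0.33. The count of 8 that passed with LE was 5 without either +R library and 16 without R+LE replicate 1.

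**Figure D3:**
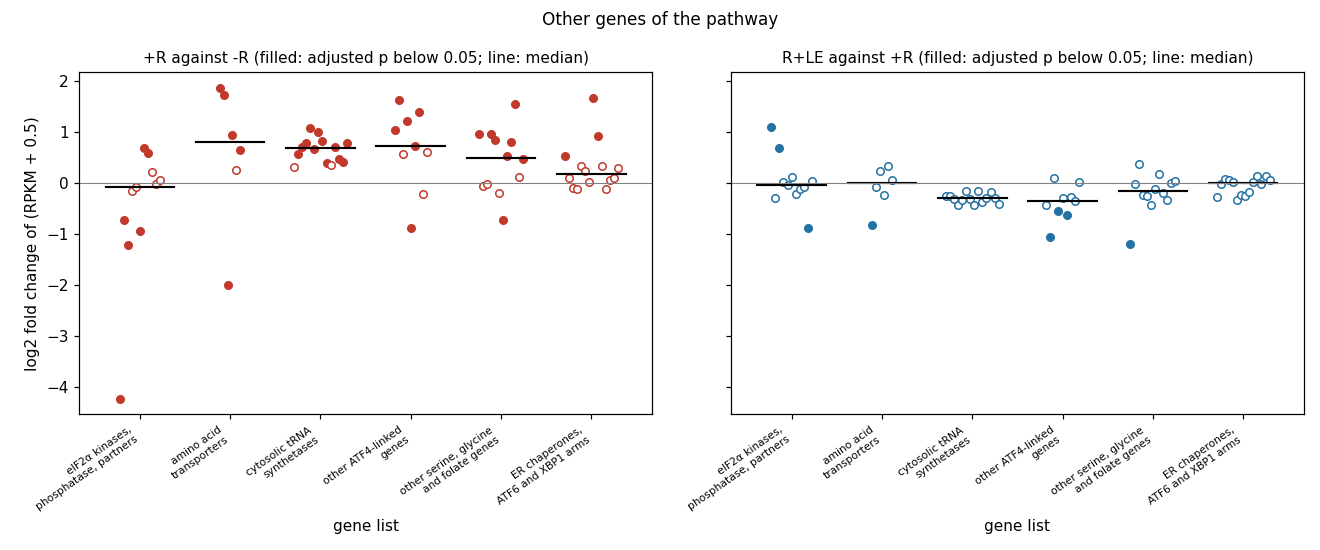
Log2 fold change of (RPKM + 0.5) (vertical axis) of the 66 tested pathway genes in 6 lists (horizontal axis), for RANKL on the left and for LE on the right, with filled points for an adjusted p below 0.05 and a line at the median of each list. With RANKL the medians run from -0.08 for the eIF2α kinases and partners to 0.80 for the amino acid transporters, and with LE from -0.35 to 0.002.

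Of 11 genes for eIF2α kinases, phosphatase subunits and partner factors, all tested, 2 rose with RANKL and 4 fell, against 23.9% and 21.5% of all genes tested. The kinase genes Eif2ak3, for the ER stress kinase PERK, and Eif2ak4, for the amino acid sensor GCN2, were the 2 that rose, with log2 fold changes of 0.69 and 0.59 (adjusted p = 0.00081 and 0.00311 in limma). The largest fall was that of Atf3, a stress-induced repressor and activator of transcription, which was 47.7 and 52.2 RPKM in -R, 2.56 and 1.85 RPKM in +R, and 6.00 and 4.65 RPKM in R+LE. The log2 fold change of Atf3 was -4.23 for RANKL (limma, SE 0.16, adjusted p = 2.53e-11) and 1.11 for LE (adjusted p = 0.000312). Cebpb, a C/EBP factor that can pair with ATF4, also fell with RANKL and rose with LE, by log2 values of -1.22 and 0.69 (adjusted p = 4.29e-06 and 0.00416 in limma). Eif2ak2, for the double-stranded RNA sensor PKR, and Atf5, a relative of Atf4, fell with RANKL by 0.94 and 0.72 on the log2 scale (adjusted p = 0.000184 and 0.00136 in limma). Ppp1r15a, for the GADD34 subunit that directs removal of phosphate from eIF2α, was 4.91 and 5.60 RPKM in -R and 5.39 and 4.95 RPKM in +R. It was 2.33 and 2.86 RPKM in R+LE, below the other 4 libraries, with a log2 fold change of -0.88 with LE (limma, SE 0.15, adjusted p = 0.00117). With LE, therefore, 2 of the list rose (Atf3 and Cebpb) and 1 fell (Ppp1r15a), against 5.19% and 6.86% of all genes tested.

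Of 9 amino acid transporter genes, 6 were tested, and with RANKL 4 rose and 1 fell, against 23.9% and 21.5% of all genes tested. With LE only Slc1a5 passed, which fell, against 6.86% of all genes. Slc1a5, for the glutamine transporter ASCT2, was 13.4 and 13.3 RPKM in -R, 49.99 and 50.2 RPKM in +R, and 27.3 and 29.0 RPKM in R+LE. The log2 fold change of Slc1a5 was 1.87 for RANKL (limma, SE 0.13, adjusted p = 2.37e-08) and -0.82 for LE (adjusted p = 0.000713). Slc38a2, for the neutral amino acid transporter SNAT2, was 22.3 and 26.4 RPKM in -R and between 71.8 and 85.7 RPKM in the other 4 libraries, with a log2 fold change of 1.74 with RANKL (adjusted p = 2.12e-07 in limma) and -0.08 for LE (adjusted p = 0.841). Slc7a5 and Slc7a1, for carriers of large neutral and of basic amino acids, rose with RANKL by 0.65 and 0.95 (adjusted p = 0.00208 and 2.9e-05 in limma). Slc3a2, the heavy chain that SLC7A5 needs at the cell surface, went the other way, from 141.8 and 130.8 RPKM in -R to 32.0 and 34.96 RPKM in +R and 42.0 and 37.7 RPKM in R+LE. Its log2 fold change with RANKL was -2.01 (limma, SE 0.14, adjusted p = 2.46e-08).

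Of 14 cytosolic tRNA synthetase genes, which load amino acids on tRNA, all were tested and 12 rose with RANKL, against 23.9% of all genes tested. The exceptions were Aars and Sars (adjusted p = 0.104 and 0.0747 in limma). The changes of the 14 genes were of similar size, from 0.31 to 1.07 on the log2 scale with a median of 0.69, and Iars was the largest at 1.07. With LE, all 14 had log2 fold changes below 0, from -0.43 to -0.15. Of these, 0 passed an adjusted p of 0.05 in limma, against 6.86% of all genes tested that fell. By unadjusted p below 0.05 the count was 7, and 2 passed with voom on recovered reads. Between R+LE and -R, 4 were higher (Iars, Mars, Lars and Eprs), against 15.3% of all genes, with log2 fold changes from 0.40 to 0.74. By unadjusted p below 0.05 the count higher was 9, and 9 passed higher with voom.

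Of 12 other metabolic and feedback genes linked to ATF4, 9 were tested. With RANKL 5 rose and 1, Gdf15, fell, against 23.9% and 21.5% of all genes tested. Cth, for the enzyme that makes cysteine from cystathionine, was 0.152 and 0.225 RPKM in -R, 2.02 and 1.28 RPKM in +R, and 0.815 and 0.294 RPKM in R+LE, with a log2 fold change of 1.62 with RANKL and -1.05 for LE (adjusted p = 0.000151 and 0.0171 in limma). Gpt2, for the mitochondrial alanine aminotransferase, was 1.83 and 1.99 RPKM in -R, 3.47 and 3.52 RPKM in +R, and 2.05 and 2.12 RPKM in R+LE, with changes of 0.73 and -0.63 (adjusted p = 0.00135 and 0.0144 in limma). Eif4ebp1, a brake on cap-dependent translation, rose by 1.21 with RANKL and fell by 0.54 with LE (adjusted p = 7.14e-06 and 0.0246 in limma). Nupr1, a stress-induced chromatin protein, and Aldh18a1, for the first step of proline synthesis, rose by 1.39 and 1.05 on the log2 scale with RANKL (adjusted p = 3.69e-06 and 2.5e-05 in limma). For LE their log2 fold changes were -0.28 and -0.44 (adjusted p = 0.323 and 0.0643 in limma). The genes that passed with LE in this list were thus Cth, Gpt2 and Eif4ebp1, all lower, against 6.86% of all genes tested.

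Of 15 other serine, glycine and folate genes, 12 were tested, and with RANKL 7 rose and 1 fell, against 23.9% and 21.5% of all genes tested. Shmt1, the cytosolic counterpart of Shmt2, was 3.25 and 2.99 RPKM in -R, 9.89 and 10.4 RPKM in +R, and 9.05 and 7.03 RPKM in R+LE, with a log2 fold change of 1.56 with RANKL (limma, SE 0.15, adjusted p = 6.08e-07) and -0.33 for LE (adjusted p = 0.195). Mthfd1, Mthfd1l and Psph, for further folate steps and the last step of serine synthesis, rose by 0.96, 0.84 and 0.53 with RANKL (adjusted p = 6.49e-05, 0.000192 and 0.00644 in limma). Aldh1l1, which oxidizes formyl-folate to carbon dioxide, was the only gene of the list that passed with LE, lower, against 6.86% of all genes tested. It was 2.14 and 2.32 RPKM in -R, 4.47 and 5.17 RPKM in +R, and 2.26 and 1.44 RPKM in R+LE, with changes of 0.96 and -1.20 (adjusted p = 0.000515 and 0.000409 in limma).

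The last list held 14 genes for ER chaperones and the ATF6 and XBP1 arms of the unfolded protein response, all tested. With RANKL 3 rose, against 23.9% of all genes tested, and 11 did not pass. Herpud1, which takes part in degrading ER proteins, was 4.27 and 3.88 RPKM in -R, 14.5 and 13.7 RPKM in +R, and 12.8 and 10.8 RPKM in R+LE, a log2 fold change of 1.68 with RANKL (limma, SE 0.14, adjusted p = 1.41e-07). The other 2 were Hsp90b1 and Atf6, at 0.92 and 0.54 (adjusted p = 0.000739 and 0.00897 in limma), while Hspa5, for the main ER chaperone BiP, stood at 0.33 (adjusted p = 0.137). With LE 0 of the 14 passed in limma, against 5.19% of all genes tested that rose and 6.86% that fell. By unadjusted p below 0.05 the count was 1, and 0 passed with voom. The median log2 fold change with LE was 0.002.

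**Figure D4:**
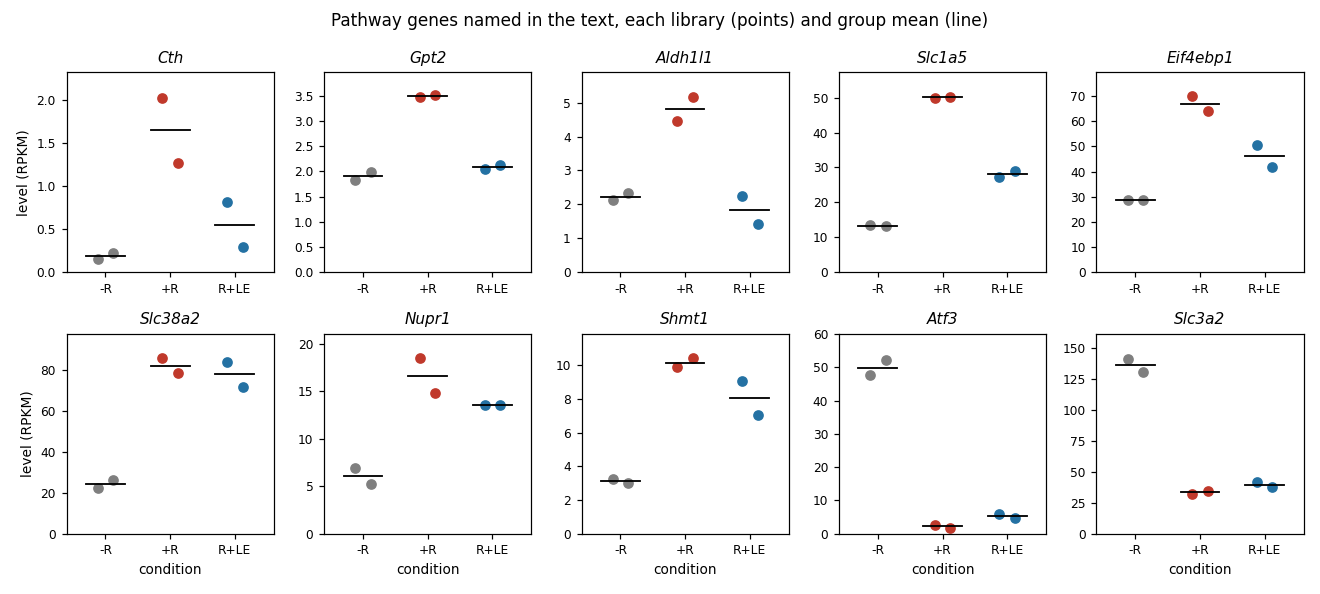
Level in RPKM (vertical axis, from 0) of 10 pathway genes in the 3 conditions (horizontal axis), with a point for each library and a line at the mean of 2 libraries. Cth, Gpt2, Aldh1l1, Slc1a5 and Eif4ebp1 passed the test both with RANKL, higher, and with LE, lower, while Slc38a2, Nupr1 and Shmt1 passed with RANKL only, and Atf3 and Slc3a2 were highest in -R.

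Over the 6 libraries, genes among the 11595 whose log2(RPKM + 0.5) followed Atf4 most closely included Adck1, Enox2, Nadsyn1 and Sap30, with Pearson correlations from 0.984 to 0.998. The other 9 genes of the group had correlations with Atf4 from 0.10 (Psat1) to 0.74 (Chac1). Those most like Asns were Zkscan17, Fdx1, Rpl10a, Irak1bp1 and Rpl3, with correlations from 0.998 to 0.999, and within the group Shmt2, Psat1 and Mthfd2 followed Asns at 0.99, 0.99 and 0.93, whereas Sesn2, Trib3 and Ddit3 ran opposite at -0.85, -0.76 and -0.71. These are descriptions over 6 libraries in 3 groups that share their culture, depth and processing, and they carry no test.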

How the data were processed

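RNA was sequenced from 6 libraries, 2 in each of 3 groups taken from the sample titles. Per the file headers, the authors ran HOMER on mm10 to count exon reads on either strand, with 1 transcript kept per gene, and deposited RPKM values under titles that say FPKM. The methods of the study name TopHat as aligner, and the submitters' processing notes name HISAT2. Tool versions are not given in the sources used here.

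The members and gene lists were chosen with earlier results of these data known. Genes averaging 0.5 RPKM or more across all 6 libraries (11595) were kept, and their log2(RPKM + 0.5) was fitted with limma version 3.58.1 (R version 4.3.3) on all 3 groups together, with a variance trend and Benjamini-Hochberg adjustment. A two-sided exact permutation test on 1 gene has a smallest p of 0.333 with 2 libraries a group, and limma goes below it by sharing the spread among genes. The code was tested on simulated data. Whole reads were recovered from RPKM and transcript length, and in each library all of at least 4007 values checked lay within 0.1 of a whole number. The chi-square between replicates was 12.5 to 28.0 per gene, above counting noise, and all libraries were kept. Read numbers are given without an error, and counting error alone would understate their spread between libraries. Promoter windows were RefSeq's (GRCm38.p6), read with Python version 3.11.15, and copies of transcripts were sought with blastn version 2.17.0 in GENCODE transcripts.

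Named were the 10 members, up to 4 genes per list and comparison that passed with the largest change, and the 5 genes most like Atf4 and Asns. Some genes under this rule or in the lists are not reported here. Other genes that the text names were picked once their values were known. As alternatives, the pseudocount was set to 0.1 or 1, the filter was dropped or raised to a mean of 1 RPKM, and the fit was made without a variance trend. Others were only the compared groups, median centring, quantile normalization, depth without Rn45s, the replicate number as a block, limma's voom on recovered reads and each library left out.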

Additional observations from a re-analysis of the deposited data

How the results depend on the processing

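Each log2 fold change of the 10 genes was recomputed under 17 alternatives, giving 510 values, of which 467 kept their sign and their side of an adjusted p of 0.05 in limma, 24 no longer passed, 12 newly passed and 7 changed sign. The 7 were all between R+LE and -R for genes that did not pass. Chac1, at -0.005 as reported, was 0 to 3 decimals with a pseudocount of 0.1, 0.049 with centring on the median, 0.037 with depth taken without Rn45s and 0.035 with voom, and with 1 library left out it ranged from -0.165 to 0.155, above 0 without -R replicate 1 or R+LE replicate 1. Phgdh ranged from -0.365 to 0.045 with 1 library left out, above 0 without R+LE replicate 2. Of the 10 genes, the number called between R+LE and -R was 1 as reported, 3 with a pseudocount of 0.1, 2 with centring, 4 with quantile normalization, 2 without Rn45s and 3 with voom, and it ranged from 1 to 3 with 1 library left out. The number that passed with LE was 4, and it was 1 without a filter, 2 with only the compared groups in the fit, and 1 to 5 with 1 library left out. Of the pathway genes, the number called with LE was 3, and 1 with a pseudocount of 1 and with no filter. The number that passed with LE was 8, and it was 5 with no filter, 13 with voom and 5 to 16 with 1 library left out. Between R+LE and -R, 21 pathway genes passed higher as reported. That number was 20 with no filter, 31 with depth without Rn45s, 32 with centring, 32 with quantile normalization and 33 with voom. The cause of these changes was not tested.

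With RANKL, Chac1, Asns, Psat1, Shmt2, Mthfd2 and Ddit3 passed under all 17 alternatives, and with LE Chac1 did. voom on the recovered reads called 839 genes higher and 1302 lower with RANKL, and 279 higher and 240 lower with LE. Replicate numbers are shared by the groups, but the deviations of same-numbered libraries from their group means correlated at -0.05 between -R and +R, 0.11 between -R and R+LE and 0.25 between +R and R+LE, so they were not taken as pairs. With the replicate number as a block, 4 of the 10 genes were called with RANKL, 4 passed with LE, 11 pathway genes passed with LE, and Mthfd2 passed between R+LE and -R (log2 fold change 0.36, adjusted p = 0.0444 in limma). At this depth the genes with fewest reads, Chac1 and Trib3, have the widest counting error.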

Other observations

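Of the 75 pathway genes, 9 lay below the filter and were not tested, and their values are given here without a test. Aldh1l2, the mitochondrial relative of Aldh1l1, had 10 and 14 reads in -R, 50 and 67 reads in +R, and 9 and 12 reads in R+LE. Slc1a4, for a serine and alanine transporter, had 28 and 23, 71 and 87, and 34 and 40 reads in the same order. Vldlr, a lipoprotein receptor gene linked to ATF4 and PERK, had 2 and 2, 14 and 21, and 4 and 5 reads. For these 3 genes both +R libraries were above the other 4, as they were for Chac1, Atf4, Asns, Shmt2 and Mthfd2. These 3 were singled out after their values were seen, and the share of all genes with this pattern was not computed. Slc6a9, a glycine transporter gene, had 7 and 29 reads in -R, and 59, 53, 60 and 51 in the 4 libraries with RANKL. Fgf21, a secreted ATF4 target, had 0 reads in all 6 libraries, which allows up to 3 reads in each, and Stc2 had 2 and 4 reads in -R and 0 in the other 4. The remaining 3, Slc7a3, Gldc and Amt, had at most 21 reads in any library.

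Gdf15, a secreted stress cytokine that is also an ATF4 and CHOP target, was 1.34 and 1.21 RPKM in -R, 0.426 and 0.497 RPKM in +R, and 0.391 and 0.191 RPKM in R+LE, a log2 fold change of -0.88 with RANKL (adjusted p = 0.00484 in limma). In reads, Gdf15 had 54 and 58, 18 and 21, and 17 and 8 in that order. Its mean over all libraries, 0.675 RPKM, was near the filter and came mostly from -R, so its test is not independent of the filter. Among the genes linked to ATF4, the secreted factor Gdf15 and the regulators Ddit3, Atf3 and Atf5 were thus lower with RANKL. The synthesis genes Asns, Psat1, Shmt2 and Aldh18a1 were higher. These genes were picked once their values were known, and regulators and synthesis genes did not divide cleanly. Nupr1, Eif4ebp1 and Chac1 also rose with RANKL (log2 fold changes 1.39, 1.21 and 1.79). The regulators Atf4 and Trib3 and the synthesis gene Phgdh did not pass.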
